A study of Rattus norvegicus with 18 samples.

Results

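The isoforms described here come from the rat genes Nr2c2ap, Mok, Tymp, Gpm6b and Chtf8. They were taken from the study's supplementary list of unannotated open reading frames (ORFs) that are conserved and lie in the region annotated as 3′ UTR. The 5 genes have 6 isoforms on that list, because Tymp has 2, and all 6 were found by identifier among the 28268 full-length transcripts whose levels were deposited. The isoforms of Rpp14 on the same list are not analysed here. The read lengths in the identifiers were 1004 nt for Nr2c2ap, 1583 nt for Mok, 1253 nt and 1904 nt for the Tymp isoforms, 2455 nt for Gpm6b and 3006 nt for Chtf8. The study searched for ORFs in isoforms that it had classed as translated mainly from the polysome profiling libraries, so the fraction levels of its list are not independent evidence of translation. The values below are levels of whole isoforms and were not measured on an ORF. Other isoforms of the 5 genes could not be looked up. A gene name below therefore stands for its listed isoforms and not for the whole gene.

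In most eukaryotic mRNAs 1 main coding sequence is translated and the sequence after its stop codon is not. An ORF in that region can be reached when a different transcript of the locus begins or is spliced so that the ORF comes first, or when ribosomes restart after the stop codon. RNAs that carry several ribosomes sediment deep in a sucrose gradient as polysomes. Those with a single ribosome sediment as monosomes, and those without ribosomes stay near the top. The 5 host genes have unrelated roles. Tymp encodes thymidine phosphorylase, which breaks thymidine down to thymine and a sugar phosphate. Gpm6b encodes the membrane glycoprotein M6B of the proteolipid protein family, which is made by neurons and oligodendrocytes. Chtf8 encodes a small subunit of an alternative clamp loader that acts in sister chromatid cohesion during DNA replication. Nr2c2ap encodes a protein that binds the orphan nuclear receptor Nr2c2 and represses its activity. Mok encodes a protein kinase related to the MAP kinases.

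RNA was sequenced in 12 libraries from male Sprague Dawley rats, 2 in each of 6 groups, and the labels give an age of 4 weeks although the series calls the animals adult. The groups were whole hippocampus, the layers of somata and of neuropil of hippocampal area CA1, which were dissected by hand from slices, and 3 gradient fractions (ribosome-free, monosome, polysome) of frozen whole brain lysed with cycloheximide, a drug that holds ribosomes on their RNA. No animal carried an allele or received a treatment by the labels, and 6 further libraries of ribosome footprints are not analysed here. Nothing in the sources says whether the 2 libraries of a group came from separate animals, so p-values measure the spread between these libraries, which may be technical. Fewer cells of a type and less RNA per cell cannot be told apart in these bulk samples. The tables pair no identifiers with gene names beyond the study's lists, so marker genes of neurons, glia or the CA1 layers were not checked.

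Levels are in TPM, a measure of the share of a library's transcripts that an isoform holds, which allows for isoform length and has the same sum in every library. They were estimated with RSEM, which divides reads between isoforms that share sequence. TPM do not tell how many reads lie behind them, and a value of 0 can be an estimate that failed. Between 27.7% and 38.5% of isoforms were listed at 0 in a library. Since the sums are equal, the amount of RNA in a fraction is not contained in the values. Hippocampus, layers and fractions are in 3 separate tables, so levels from different tables stand side by side without a test.

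In whole hippocampus the 6 isoforms spanned the range from abundant to barely listed. Gpm6b was at 163 and 182 TPM in the 2 libraries, above 96.2% of all isoforms by its mean of 173 ± 13.0 TPM (SD, n = 2). Chtf8 was at 60.0 and 65.5 TPM, and its mean of 62.7 ± 3.91 TPM lay above 88.5% of isoforms. Nr2c2ap was at 34.7 and 25.6 TPM, a mean of 30.2 ± 6.48 TPM that lay above 78.8% of isoforms. These ranges did not overlap, so that the order of Gpm6b, Chtf8 and Nr2c2ap was the same in both libraries.

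The Tymp isoforms were lower and close to each other in hippocampus. The 1904 nt isoform was at 9.59 and 12.3 TPM, with a mean of 10.9 ± 1.90 TPM, and the 1253 nt isoform was at 4.49 and 12.0 TPM, with a mean of 8.24 ± 5.30 TPM. The 1904 nt isoform was the higher in both libraries, by little in replicate 2, and the ranges of the isoforms overlapped. Mok was at 1.76 TPM in replicate 1 and was listed at 0 in replicate 2, which left it the lowest of the 6 isoforms in both libraries.

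**Figure D1:**
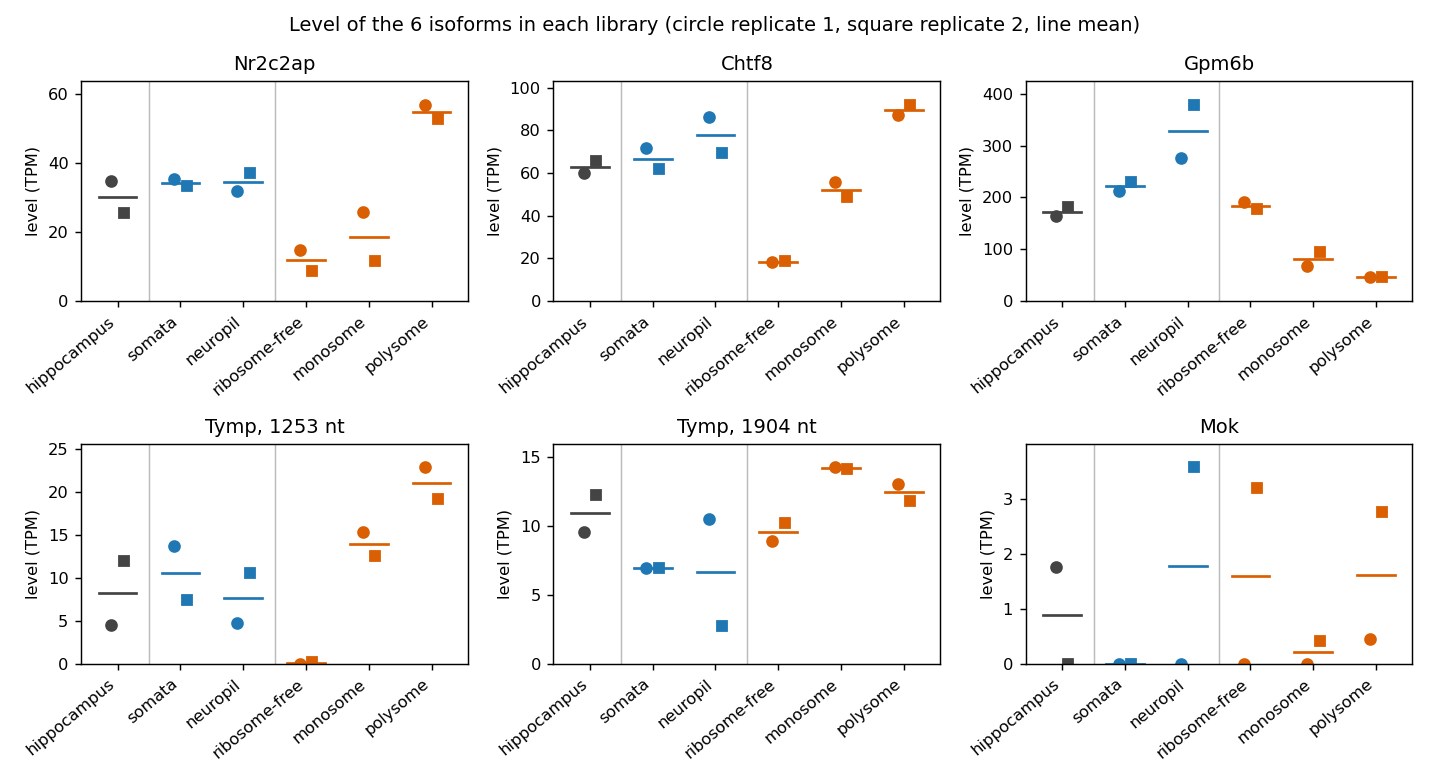
Level in TPM (linear axis from 0, scaled separately in each panel) of the 6 isoforms in the 12 libraries, with hippocampus in grey, the CA1 layers in blue and the brain fractions in orange. Circles are replicate 1, squares are replicate 2 and lines are means of 2 libraries. Nr2c2ap, Chtf8 and the 1253 nt isoform of Tymp are highest in polysome RNA among the fractions, whereas Gpm6b is highest in ribosome-free RNA.

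The fractions of whole brain ask in which state of ribosome loading an isoform is found. Of the 6 isoforms, 3 were higher in polysome than in ribosome-free RNA, namely Chtf8, Nr2c2ap and the 1253 nt isoform of Tymp, and 1 was lower, namely Gpm6b. The 1904 nt isoform of Tymp and Mok did not pass the test. Over all 19667 isoforms tested, 34.1% were higher and 11.1% were lower in polysome RNA. The test was limma on log2(TPM + 1), a scale that understates the change of low isoforms, with Benjamini-Hochberg adjustment over all tested isoforms, and an adjusted p under 0.05 made a call. The median log2 fold change was 1.26 over the 6 isoforms and 0.63 over all tested isoforms. Of all calls, 75.4% were higher in polysome RNA. This share was 53.9% after quantile normalization and 54.6% after scaling by median ratios, which brought the median of all isoforms to 0.09 and 0.12. The median of the 6 isoforms was then 0.68 and 0.73. Under both scalings 3 of the 6 log2 fold changes were above 0, in place of 5. Log2 fold changes against ribosome-free RNA are therefore also given less the median of all isoforms.

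Chtf8 followed the gradient step by step. It was at 18.1 and 18.6 TPM in ribosome-free RNA, 55.6 and 48.9 TPM in monosome RNA and 87.4 and 92.1 TPM in polysome RNA. The 3 fractions did not overlap, and the replicates of a fraction lay close together. Polysome exceeded ribosome-free RNA by a log2 fold change of 2.23 (SE 0.12, limma adjusted p = 0.000305), or 1.60 above the median of all isoforms. Monosome exceeded ribosome-free RNA by 1.45 on the log2 scale (SE 0.12, limma adjusted p = 0.0014), or 0.76 above the median, and by 0.92 after quantile normalization and 0.77 with median ratios. Polysome exceeded monosome RNA by 0.77 on the log2 scale (SE 0.12, limma adjusted p = 0.0119). Without monosome replicate 2, polysome replicate 1 or polysome replicate 2 this last difference was 0.68, 0.81 and 0.73, about as large, and its adjusted p of 0.061, 0.0648 and 0.0712 missed the threshold with fewer libraries.

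Nr2c2ap was highest in polysome RNA, with wider spread below. Its levels were 14.7 and 8.77 TPM in ribosome-free RNA, 25.7 and 11.5 TPM in monosome RNA and 56.9 and 52.8 TPM in polysome RNA. Ribosome-free and monosome levels overlapped, and both polysome libraries lay above all 4 others. The log2 fold change of polysome against ribosome-free RNA was 2.17 (SE 0.43, limma adjusted p = 0.0116), or 1.54 above the median of all isoforms. This call was lost after quantile normalization (log2 fold change 1.46, adjusted p = 0.0579) and, with fewer libraries, without ribosome-free replicate 2 (1.83, adjusted p = 0.0801), polysome replicate 1 (2.12, adjusted p = 0.0947) and polysome replicate 2 (2.22, adjusted p = 0.0862). Against monosome RNA the log2 fold change was 1.61 (SE 0.43) with a limma adjusted p of 0.0521, just outside the threshold. Monosome against ribosome-free RNA gave 0.56 on the log2 scale (95% interval -0.53 to 1.65, limma adjusted p = 0.344), or -0.13 less the median, and this value turned to -0.05 after quantile normalization and -0.10 with median ratios.

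Gpm6b ran the other way. It was at 191 and 177 TPM in ribosome-free RNA, 66.8 and 95.3 TPM in monosome RNA and 46.3 and 46.6 TPM in polysome RNA, with no overlap between fractions. Its place among all isoforms moved from above 97.7% of them in ribosome-free to above 85.8% in polysome RNA. Only 7.31% of tested isoforms had a lower log2 fold change of polysome against ribosome-free RNA (Gpm6b -1.96, 95% interval -2.43 to -1.50). Less the median of all isoforms this was -2.59, and it was -2.56 after quantile normalization and -2.62 with median ratios. Monosome against ribosome-free RNA gave a log2 fold change of -1.20 (SE 0.18, limma adjusted p = 0.00694), or -1.89 less the median, and -1.90 with median ratios. Without ribosome-free replicate 1 it was -1.14 with an adjusted p of 0.0502. The step from monosome to polysome RNA gave -0.77 on the log2 scale (SE 0.18, limma adjusted p = 0.0394). That call was lost under 10 of 15 alternatives, with an adjusted p between 0.0269 and 0.188 over all 15.

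Mok had low TPM in all fractions. Its mean lay above 44.1% of isoforms in ribosome-free, 23.5% in monosome and 41.6% in polysome RNA. It was listed at 0 in replicate 1 and at 3.19 TPM in replicate 2 of ribosome-free RNA, at 0 and 0.41 TPM in monosome RNA, and at 0.45 and 2.76 TPM in polysome RNA. Ribosome-free RNA overlapped both other fractions, whereas both polysome libraries lay above both monosome libraries. The 95% interval of the log2 fold change of polysome against ribosome-free RNA ran from -2.07 to 2.45 around 0.19 (-0.44 less the median, limma adjusted p = 0.882), so a change of several fold in either direction was within the error. The other comparisons of fractions gave log2 fold changes of -0.79 for monosome against ribosome-free (-1.48 less the median, adjusted p = 0.517) and 0.98 for polysome against monosome RNA (adjusted p = 0.494).

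Across the steps of the gradient, monosome against ribosome-free RNA called 2 of the 6 isoforms higher in monosome, Chtf8 and the 1253 nt isoform of Tymp, and 1 lower, Gpm6b. Over all tested isoforms 32.1% were higher and 7.3% were lower in monosome RNA, and the median log2 fold change was 0.69 against 0.54 over the 6 isoforms. Of all calls in this comparison 81.4% were higher in monosome RNA, which became 54.1% after quantile normalization and 50.8% with median ratios. The median of the 6 isoforms was then -0.07 and -0.11, beside 0.07 and 0.11 over all isoforms. Polysome against monosome RNA called 1 of the 6 higher, Chtf8, and 1 lower, Gpm6b, against a background of 11.6% higher and 11.6% lower. The median there was 0.67 over the 6 isoforms and -0.02 over all. The 3 comparisons share libraries, so their calls are not independent of each other.

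**Figure D2:**
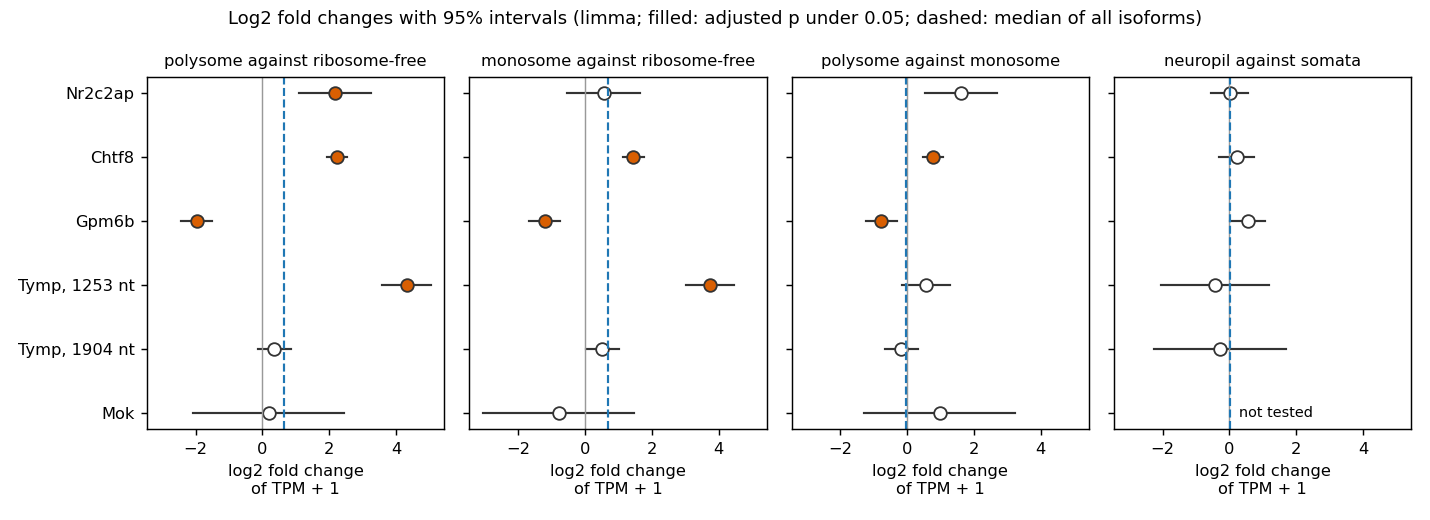
Log2 fold change of TPM + 1 (horizontal axis) of each isoform (vertical axis) in the 4 comparisons, with 95% intervals from limma. Filled circles have an adjusted p under 0.05 and the dashed line is the median of all tested isoforms in that comparison. The 1253 nt isoform of Tymp stands at 4.31 and the 1904 nt isoform at 0.35 in polysome against ribosome-free RNA.

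The Tymp isoforms were at similar levels in monosome RNA and far apart in ribosome-free RNA. The 1253 nt isoform was listed at 0 in replicate 1 and at 0.23 TPM in replicate 2 of ribosome-free RNA. Monosome RNA had 15.4 and 12.6 TPM of it, and polysome RNA had 22.9 and 19.2 TPM. Both ribosome-bound fractions thus lay far above the ribosome-free libraries, and polysome lay above monosome RNA without overlap. Because a ribosome-free library is listed at 0, no fold of TPM is given for these comparisons, and the fitted values depend on the pseudocount of 1. On the log2(TPM + 1) scale polysome exceeded ribosome-free RNA by 4.31 (95% interval 3.58 to 5.04), which is 3.68 above the median of all isoforms, and 98.0% of tested isoforms had a lower value. Monosome exceeded ribosome-free RNA by 3.75 (SE 0.29, limma adjusted p = 0.00114), or 3.06 above the median. With a pseudocount of 0.1 these differences were 6.86 for polysome and 6.27 for monosome RNA, and with a pseudocount of 5 they were 2.35 and 1.89, all past the threshold. Polysome against monosome RNA gave 0.56 (95% interval -0.17 to 1.29, limma adjusted p = 0.232), so that step did not pass the test although the libraries did not overlap.

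The 1904 nt isoform varied less across the gradient. Its levels were 8.91 and 10.2 TPM in ribosome-free RNA, 14.3 and 14.1 TPM in monosome RNA and 13.0 and 11.8 TPM in polysome RNA. The fractions did not overlap, with monosome highest, but they lay within a few TPM of each other. The log2 fold change was 0.35 for polysome against ribosome-free RNA (95% interval -0.14 to 0.84, limma adjusted p = 0.203) and 0.53 for monosome against ribosome-free RNA (95% interval 0.04 to 1.02, limma adjusted p = 0.0848). Less the median of all isoforms these were -0.28 and -0.17. After quantile normalization they turned to -0.22 and -0.09, and with median ratios to -0.26 and -0.12, so the direction for this isoform depends on the scaling. Polysome against monosome RNA gave -0.18 (95% interval -0.67 to 0.31, limma adjusted p = 0.569).

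Set against each other within a library, the 1253 nt isoform held 0% and 2.20% of the summed TPM of the 2 Tymp isoforms in ribosome-free RNA, 51.9% and 47.1% in monosome RNA and 63.7% and 61.9% in polysome RNA. The 3 fractions did not overlap in this share. The mean log2 ratio of the shorter to the longer isoform, with 1 TPM added to each, was -3.25 ± 0.08 in ribosome-free, -0.03 ± 0.18 in monosome and 0.71 ± 0.08 in polysome RNA (SD, n = 2). The ratio rose by 3.96 from ribosome-free to polysome RNA, by 3.22 from ribosome-free to monosome and by 0.74 from monosome to polysome RNA. The size of the differences from ribosome-free RNA rests on the added 1 TPM. With 0.1 TPM added they were 6.48 for polysome and 5.70 for monosome RNA, and with 5 TPM added they were 2.09 and 1.49. In an exact two-sided permutation test each of these differences had p = 0.333, the smallest that 2 libraries against 2 can give, and an adjusted p of 0.444 over the 4 comparisons of the ratio. The differences were thus larger than the spread between replicates but could not pass a threshold of 0.05 in this design.

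The sum of the listed Tymp isoforms was 8.91 and 10.5 TPM in ribosome-free RNA. It was 29.6 and 26.7 TPM in monosome RNA and 36.0 and 31.1 TPM in polysome RNA. The summed level was 1.69 higher on the log2 scale in polysome than in ribosome-free RNA (SE 0.17, limma adjusted p = 0.00133), or 1.06 above the median of all isoforms. It was 1.01 higher after quantile normalization and 1.07 higher with median ratios, and it passed the threshold under all 15 alternatives run. In the ribosome-free libraries nearly the whole sum was the 1904 nt isoform. TPM allow for length, so the sum also moves with how RSEM divided reads between isoforms of different length.

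**Figure D3:**
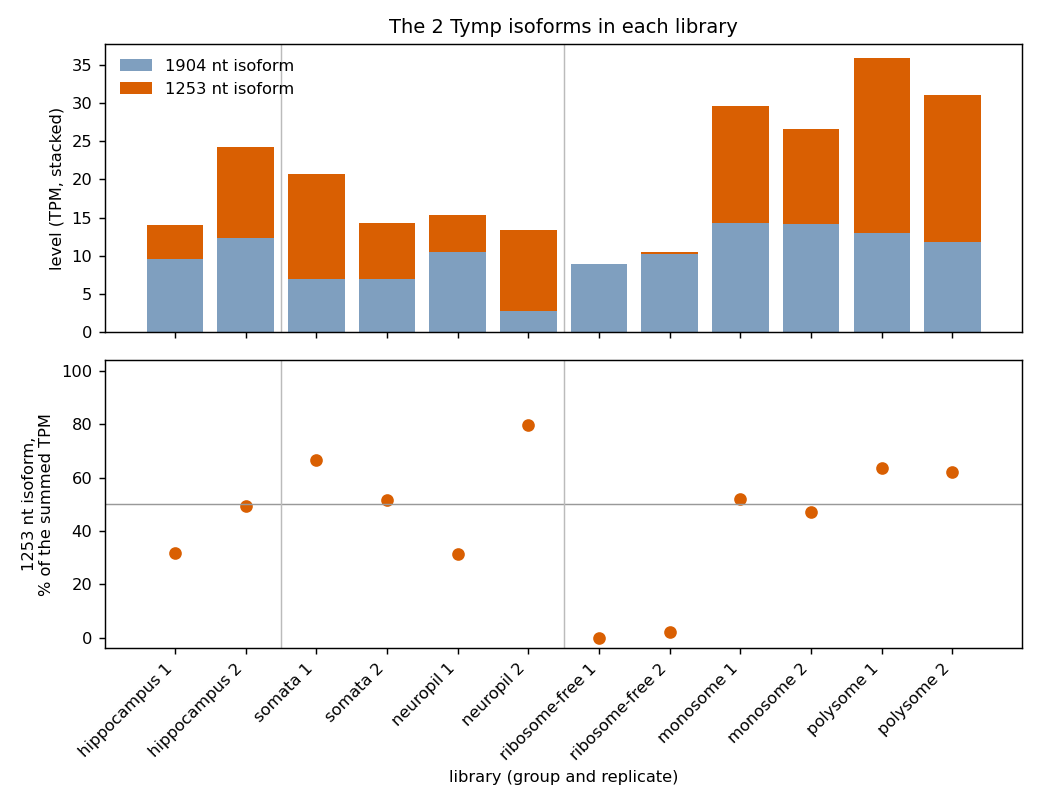
The Tymp isoforms in the 12 libraries (horizontal axis, group and replicate). The upper panel stacks the TPM of the 1904 nt isoform (blue) and the 1253 nt isoform (orange), and the lower panel gives the 1253 nt isoform as a percent of their sum, with a line at 50%. The share is at 0% and 2.20% in ribosome-free RNA and at 61.9% and 63.7% in polysome RNA, and it ranges from 31.3% to 79.6% in neuropil.

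Outside the gradient the split between the Tymp isoforms varied between replicates as much as between groups. The 1253 nt isoform held 31.9% and 49.4% of the sum in hippocampus, 66.4% and 51.6% in somata, and 31.3% and 79.6% in neuropil. In neuropil the isoforms changed places between the replicates, with the 1253 nt isoform at 4.81 and 10.6 TPM and the 1904 nt isoform at 10.5 and 2.73 TPM, while their sum stayed at 15.4 and 13.4 TPM. In somata the 1253 nt isoform was at 13.8 and 7.38 TPM and the 1904 nt isoform at 6.97 and 6.93 TPM, for a sum of 20.8 and 14.3 TPM. The difference of the mean log2 ratio, neuropil less somata, was -0.16, with p = 1 in the exact permutation test, and its sign turned when neuropil replicate 1 or somata replicate 1 was left out. For the sum, neuropil less somata was -0.25 on the log2 scale (95% interval -1.17 to 0.67, limma adjusted p = 0.748).

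The comparison of neuropil with somata asks whether an isoform is richer in the layer of dendrites and axons or in the layer of cell bodies. None of the 5 isoforms that passed the filter was called, and neither was any of the 20393 isoforms tested with limma, a background of 0%. The study itself reports isoforms enriched in either layer among neuronal genes with several isoforms. Its set of isoforms differs from the one tested here, and the absence of calls here does not show that the layers are alike. At an unadjusted p under 0.05, 3024 isoforms (14.8%) passed, and among the 5 only Gpm6b did. The smallest adjusted p over all isoforms was 0.179. Across all tested isoforms the neuropil libraries were also less alike (Pearson's r = 0.765) than the somata libraries (r = 0.843). Neuropil replicate 1 had the lowest r with the other layer libraries, at 0.753 and 0.752 with somata and 0.765 with neuropil replicate 2, whereas neuropil replicate 2 had r = 0.803 and 0.814 with the somata libraries. The part of replicate 1 in the values below was not tested beyond leaving it out.

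Gpm6b was at 213 and 230 TPM in somata and at 276 and 379 TPM in neuropil, so that both neuropil libraries lay above both somata libraries. The log2 fold change was 0.55 (95% interval 0.03 to 1.06), with an unadjusted p of 0.0428 and an adjusted p of 0.32 in limma. With 1 library left out in turn it ranged from 0.32 to 0.78.

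Nr2c2ap had similar levels in the layers, at 35.3 and 33.3 TPM in somata and 31.9 and 37.1 TPM in neuropil. Its log2 fold change was 0.00 (95% interval -0.55 to 0.56, limma adjusted p = 0.996). Chtf8 was at 71.7 and 61.7 TPM in somata and 86.4 and 69.3 TPM in neuropil, with overlapping layers and a log2 fold change of 0.21 (95% interval -0.31 to 0.74, limma adjusted p = 0.645). For the Tymp isoforms the log2 fold changes were -0.44 (95% interval -2.06 to 1.18, limma adjusted p = 0.755) at 1253 nt and -0.28 (95% interval -2.26 to 1.71, limma adjusted p = 0.891) at 1904 nt. These intervals are so wide that a change of 2-fold in either direction is within them.

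Mok was listed at 0 in both somata libraries and in neuropil replicate 1, and at 3.57 TPM in neuropil replicate 2. Its mean over the 4 libraries was under 1 TPM and it was not tested. Taken with hippocampus and the fractions, Mok was listed at 0 in 6 of the 12 libraries and reached at most 3.57 TPM.

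The same supplementary list holds 19 other isoforms of 13 genes, whose conserved unannotated ORFs lie in a 5′ UTR, in an intron or in a different frame of the coding sequence. Of the 18 that passed the filter in the fractions, 10 were higher and 1 was lower in polysome than in ribosome-free RNA, against 34.1% and 11.1% of all isoforms. The counts were 7 and 2 after quantile normalization, where 4039 and 3454 of all 19667 isoforms were called higher and lower. With median ratios they were 6 and 2, where 4193 and 3481 of all isoforms were called. In the main fit 6710 and 2191 of all isoforms were called. The median log2 fold change of the 18 was 0.97 beside 0.63 over all isoforms. It was 0.41 after quantile normalization and 0.37 with median ratios, beside 0.09 and 0.12 over all isoforms. The 6 and these 18 isoforms came from the study's choice of translated isoforms. Among the 18 the highest value was that of Sdf4, a calcium-binding protein of the Golgi lumen (2.19, SE 0.14), close to the values of Chtf8 (2.23) and Nr2c2ap (2.17). The highest value of the 18, which need not be that of Sdf4 under another scaling, was 1.84 after quantile normalization and 1.82 with median ratios. Chtf8 was then at 1.51 and 1.59, so whether it lies above all 18 depends on the scaling. The lowest was that of Smim29, a small membrane protein (-0.93), which was above that of Gpm6b. In monosome against ribosome-free RNA 10 of the 18 were higher and 0 were lower, against 32.1% and 7.3% of all isoforms. These counts became 6 and 1 after quantile normalization and 5 and 1 with median ratios. The calls over all 19667 isoforms went from 6304 higher and 1436 lower to 3171 and 2692 after quantile normalization. With median ratios they were 3031 and 2936. In polysome against monosome RNA 3 were higher and 3 were lower, against 11.6% and 11.6% of all isoforms. In neuropil against somata 0 of 18 were called.

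**Figure D4:**
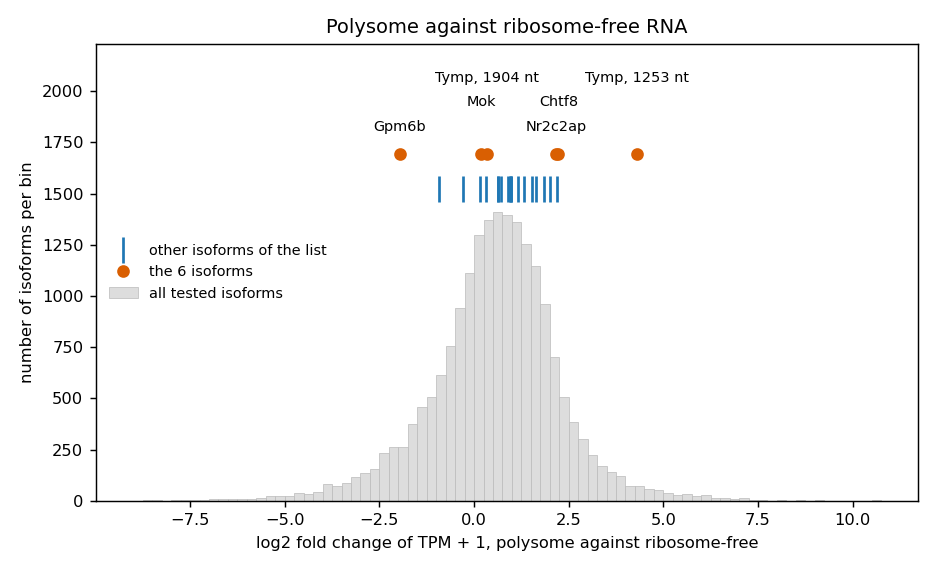
Histogram of the log2 fold change of TPM + 1, polysome against ribosome-free RNA (horizontal axis), over the 19667 tested isoforms (vertical axis, number per bin), with the 6 isoforms as orange points and the 18 other isoforms of the list as blue ticks above it. The 6 isoforms reach from -1.96 for Gpm6b to 4.31 for the 1253 nt isoform of Tymp, and the blue ticks lie between -0.93 and 2.19.

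The profile of each isoform over the 6 fraction libraries was compared with those of the 18 other isoforms, as the root mean square difference of log2(TPM + 1) after each isoform was centred on its own mean. The isoform most like Chtf8 was that of Sdf4, at 0.17 log2 units, with 38.0 and 44.6 TPM in ribosome-free RNA, 115 and 138 TPM in monosome RNA and 200.5 and 183 TPM in polysome RNA. The isoform most like the 1904 nt isoform of Tymp was the 2057 nt isoform of Poldip2, at 0.14 log2 units, with 90.7 and 93.4 TPM in ribosome-free and 144 and 145 TPM in polysome RNA. The other 4 had no partner as near. The smallest differences were 0.51 for Mok with the 1568 nt isoform of Nt5dc1, 0.52 for Nr2c2ap with the 721 nt isoform of LOC301124, 0.70 for Gpm6b with Bcl7b, and 1.01 for the 1253 nt isoform of Tymp with the 1398 nt isoform of Med8. The Med8 isoform was also listed at 0 in both ribosome-free libraries, whereas monosome RNA had 3.95 and 2.26 TPM of it and polysome RNA had 2.45 and 3.61 TPM. These are descriptions over 6 libraries.

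In the RefSeq annotation of the rat assembly GRCr8, which differs from the rn6 build of the files, 4 of the 5 genes overlap another gene. Nr2c2ap on chromosome 16 overlaps Rfxank, Mok on chromosome 6 overlaps LOC108351302, Tymp on chromosome 7 overlaps Ncaph2, and Chtf8 on chromosome 19 overlaps Derpc and Utp4. Gpm6b on chromosome X overlaps no gene. The strands of the overlapping genes were not compared, and the stated RSEM arguments name no strand option. Whether reads from an overlapping gene were counted in these isoforms was not tested. It was also not checked whether an overlapping gene contains the listed ORF.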

How the data were processed

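Isoform levels were analysed in 12 Illumina libraries of rat hippocampus, CA1 layers and brain ribosome fractions, 2 per group, with groups taken from the sample labels. The authors removed adapters, built a reference from their full-length transcripts and ran RSEM with Bowtie 2, and they deposited TPM values with 2 decimals in 3 tables. The submitters' processing notes name RSEM, TopHat2 and rn6 without versions. By the methods the fraction libraries were made from total RNA and the hippocampus libraries were single-end, whereas the labels give polyA RNA and the RSEM arguments are for paired-end reads. TPM keep no depth, so no counting interval was computed, and the precision rests on the spread of 2 libraries.

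The 6 isoforms, their list and the tests were chosen with earlier results of these data known. Isoforms averaging 1 TPM or more over a table's libraries were fitted with limma 3.58.1 in R 4.3.3 (lmFit, eBayes with trend, two-sided) on log2(TPM + 1), with all groups of a table in the fit and Benjamini-Hochberg adjustment over all isoforms tested. The script was tested on simulated data. Ratios and exact permutation tests used Python 3.11.15, pandas 2.3.3, numpy 2.4.6 and scipy 1.17.1, and plots matplotlib 3.10.9. Named isoforms were the 6, the highest and lowest of the 19 other isoforms of the list by polysome against ribosome-free RNA, and the nearest of these to each of the 6. Gene names come from the study's list alone. Alternatives changed the pseudocount (0.1, 5), the filter (none, 5 TPM), the scaling, the prior variance, the replicate block and the libraries in the fit.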

Additional observations from a re-analysis of the deposited data

How the results depend on the processing

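Among the alternatives that kept 2 libraries in each compared group, quantile normalization alone changed the calls of the 6 in polysome against ribosome-free RNA. The 3 higher calls became 2, with Nr2c2ap lost, and the 1 lower call stayed. Chtf8, Gpm6b and the 1253 nt isoform of Tymp were called there under each of these alternatives. Over all isoforms quantile normalization left 4039 higher and 3454 lower in place of 6710 and 2191. The 1 call higher in polysome than monosome RNA became 2, with Nr2c2ap added, with a pseudocount of 5 and with a filter of 5 TPM, and it ranged from 0 to 2 with 1 library left out. The 1 call lower in polysome than monosome RNA, Gpm6b, became 0 with no filter, with median ratios, with a constant prior variance and with only the libraries of the compared fractions in the fit, and it ranged from 0 to 1 with 1 library left out. The 1 call lower in monosome than ribosome-free RNA ranged from 0 to 1 with 1 library left out. The main fit did not pair libraries by replicate number. Same-numbered libraries deviated from their group means with correlations of 0.0026, 0.0022 and -0.0099 between fractions and 0.033 between layers. Such values cannot tell whether same-numbered libraries came from the same lysate or the same slices, which the sources do not say. The replicate block gave 2 isoforms higher and 0 lower in polysome than monosome RNA and moved no other count of calls among the 6. Over all isoforms it left 1784 higher and 1686 lower in polysome than monosome RNA in place of 2284 and 2278. Against ribosome-free RNA it left 6230 higher and 1965 lower in polysome RNA in place of 6710 and 2191. With no filter the 1904 nt isoform of Tymp was called higher in monosome than ribosome-free RNA (limma adjusted p = 0.0439). Directions that turned belonged to values that had passed no threshold, and the cause was not tested. After quantile normalization and with median ratios, polysome against ribosome-free RNA gave -0.088 and -0.085 for Mok and -0.22 and -0.26 for the 1904 nt isoform of Tymp, monosome against ribosome-free RNA gave -0.052 and -0.099 for Nr2c2ap and -0.092 and -0.12 for the 1904 nt isoform of Tymp, and neuropil against somata gave -0.043 and -0.016 for Nr2c2ap, all as log2 fold changes. With 1 library left out, Mok ranged from -0.84 to 1.22 in polysome against ribosome-free RNA and from -1.82 to 0.25 in monosome against ribosome-free RNA. In neuropil against somata Nr2c2ap ranged from -0.10 to 0.11, the 1904 nt isoform of Tymp from -1.09 to 0.54, the 1253 nt isoform from -0.94 to 0.065, their sum from -0.50 to 0.0017 and the difference of their log2 ratio from -1.48 to 1.16. With no filter Mok gave 1.10 in neuropil against somata (limma adjusted p = 0.724). Depth is unknown, so no counting error can be given for low values such as those of Mok.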
